A study of Sus scrofa with 32 samples.

Results

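PPARGC1A (ENSSSCG00000029275) and PPARA (ENSSSCG00000000006) are described here across 4 breed groups of pigs, in the longissimus dorsi, a muscle of the loin. They are 2 of the 17930 genes listed in the data, were chosen by name and identifier, and were both among the 12821 genes with enough reads to test. They and the gene lists used below were chosen with earlier results of these data known. RNA-seq counted the reads of each gene in 1 library per pig, with 8 libraries per group and 32 in all. Landrace (L) and Dapulian (DPL) are breeds, LDPL is the Landrace x Dapulian cross, and DLDPL is the Duroc x Landrace x Dapulian cross. All groups were labelled wild type, were 6 months old, and had comparable housing and feeding. The labels give neither the direction of a cross nor the parents, sex or litter of a pig. L pigs carry their own series of numbers, while the other 3 groups share 1 series in which no number repeats, and no batch is stated. Separate handling of the L pigs and their breed cannot be told apart.

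PPARGC1A encodes PGC-1alpha, a transcriptional coactivator that binds no DNA by itself and acts through partners such as nuclear receptors and the estrogen-related receptors. In skeletal muscle its own transcription rises with contraction, calcium and stress signals, and in experimental models it raises mitochondrial gene expression and shifts fibres toward oxidative metabolism. PPARA encodes the nuclear receptor PPARalpha, which pairs with retinoid X receptors, responds to fatty acids, and drives genes of fatty acid uptake and oxidation, with PGC-1alpha as one of its coactivators.

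PPARGC1A was low in L pigs, and higher and more unevenly spread in the other 3 groups. Levels are given in CPM, reads of a gene scaled to a common library total, after TMM scaling, a correction for the composition of each library. In L the lowest, median and highest PPARGC1A levels were 7.37, 10.8 and 18.0 CPM. In DPL they were 11.0, 35.3 and 179 CPM. In LDPL they were 21.2, 36.9 and 212 CPM, and in DLDPL 9.55, 77.2 and 164 CPM. All 8 LDPL pigs lay above every L pig, and so did 7 of 8 DPL and 7 of 8 DLDPL pigs. The exceptions were DPL pig 30, at 11.0 CPM, and DLDPL pig 18, at 9.55 CPM, both inside the L range. Means were 11.6 ± 3.61 CPM for L, 62.4 ± 63.1 for DPL, 61.7 ± 63.2 for LDPL and 83.7 ± 60.0 for DLDPL (SD, n = 8 each).

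Against L, PPARGC1A rose by 2.43 ± 0.55 on the log2 scale in DPL (± SE, adjusted p = 0.000688 in edgeR's quasi-likelihood test, adjusted over all tested genes). The rise was 2.42 ± 0.55 in LDPL (edgeR adjusted p = 0.0011) and 2.85 ± 0.56 in DLDPL (edgeR adjusted p = 0.000353). Among all tested genes, 19.1% passed as higher in DPL and 18.9% as lower, at an adjusted p under 0.05. The shares were 14.9% and 14.7% in LDPL, and 11.6% and 10.3% in DLDPL. These 3 comparisons share the L libraries. The size of the rise differed between fits. With limma on log2(RPKM + 1), where RPKM is the authors' reads per kilobase of gene scaled to the library total, with no TMM scaling, the DPL rise was 1.56 (limma adjusted p = 0.0137). Without LDPL pig 15, the highest of the 32 at 212 CPM, the LDPL rise was 1.80 (edgeR adjusted p = 0.0075). In a bulk sample, a different number of cells with the transcript and a different amount per cell cannot be told apart.

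The spread of PPARGC1A was itself much wider outside L. The highest pig exceeded the lowest by 2.44-fold for L, 16.2-fold for DPL, 9.99-fold for LDPL and 17.2-fold for DLDPL. The SD of log2 CPM was 0.43 for L, 1.37 for DPL, 1.07 for LDPL and 1.41 for DLDPL. As a description, 1352 genes had a mean level over the 32 pigs within 0.5 log2 units of that of PPARGC1A. Their median SD was 0.21 in L and 0.23 to 0.28 in the other groups. Among them, the SD of PPARGC1A lay at percentile 91.6 for L, 99.9 for DPL, 99.7 for LDPL and 99.6 for DLDPL. In L, PPARGC1A lay below its mean over the 32 pigs, so the match in level need not hold within L. Levels above 100 CPM were found in 7 pigs, of which 2 were DPL, 1 was LDPL and 4 were DLDPL. Reads covered 95.7 to 99.4% of the listed 2679 bases of PPARGC1A in each of the 32 libraries, in low and high pigs alike.

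PPARA was a low transcript, counted at 45 to 200 reads per library, and was also lowest in L. Its lowest, median and highest levels were 1.68, 1.88 and 2.77 CPM in L. They were 1.69, 4.22 and 7.62 CPM in DPL, 2.56, 3.83 and 6.94 CPM in LDPL, and 3.34, 5.83 and 6.94 CPM in DLDPL. All 8 DLDPL pigs lay above every L pig, as did 7 of 8 DPL and 7 of 8 LDPL pigs. DPL pig 11, at 1.69 CPM, and LDPL pig 5, at 2.56 CPM, overlapped the L range. Means were 2.13 ± 0.453 CPM for L, 4.53 ± 1.76 for DPL, 4.30 ± 1.54 for LDPL and 5.60 ± 1.34 for DLDPL (SD, n = 8 each).

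The PPARA rise against L was 1.09 ± 0.23 on the log2 scale in DPL (edgeR adjusted p = 0.000288), 1.01 ± 0.23 in LDPL (0.000936) and 1.40 ± 0.23 in DLDPL (3.42e-05). In contrast to PPARGC1A, its spread was ordinary. The SD of its log2 CPM was 0.29 in L and 0.38 to 0.62 in the other groups, at percentiles 36.9 to 83.5 among 1677 genes of similar level. Reads covered 48.4 to 78.5% of its listed 1927 bases. On the log2(RPKM + 1) scale, which compresses low levels, limma gave rises of 0.53, 0.56 and 0.88. Per length, in RPKM, PPARGC1A was the more abundant of the pair in each group, with 4.46 ± 1.26 against 1.16 ± 0.265 in L and 33.5 ± 25.5 against 3.06 ± 1.01 in DLDPL.

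**Figure D1:**
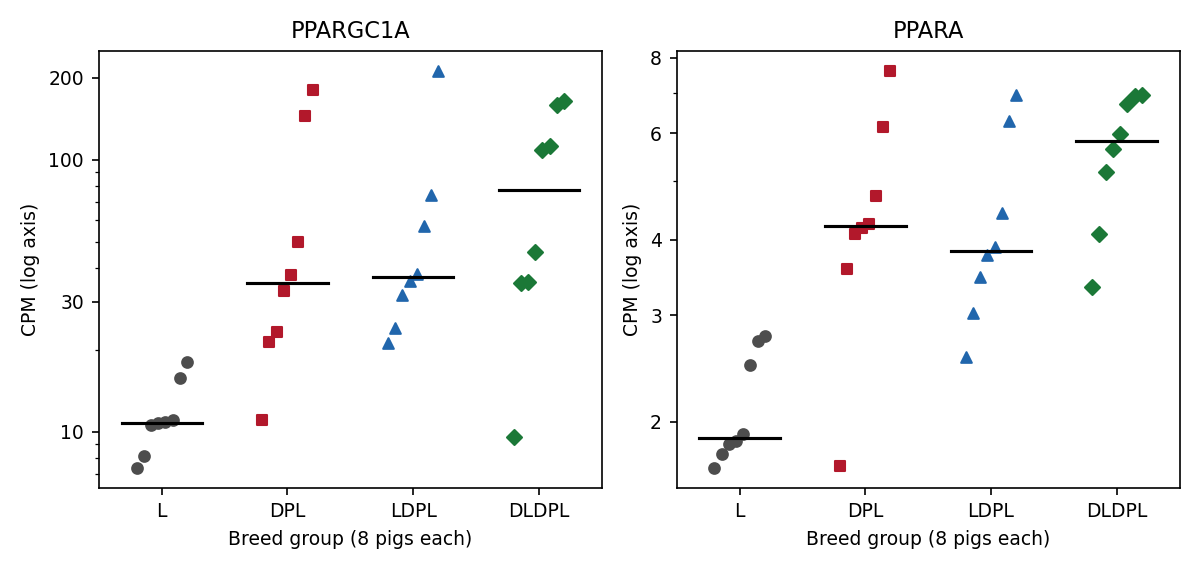
PPARGC1A (left) and PPARA (right) in each pig, in CPM on a log axis, by breed group; points are single pigs in order of level and bars are group medians. PPARGC1A spans 7.37 to 18.0 CPM in L and up to 212 CPM elsewhere, and PPARA stays at or below 2.77 CPM in L.

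Among the 3 groups above L, neither gene separated one group from another. The order of mean CPM was DLDPL, DPL, LDPL and L for both genes, but only the differences from L passed in edgeR. By median CPM, LDPL lay slightly above DPL for PPARGC1A. For PPARGC1A the log2 difference was -0.02 ± 0.52 for LDPL minus DPL, 0.42 ± 0.52 for DLDPL minus DPL and 0.44 ± 0.52 for DLDPL minus LDPL (edgeR adjusted p = 0.993, 0.696 and 0.906). For PPARA these differences were -0.07, 0.31 and 0.38 (edgeR adjusted p = 0.910, 0.453 and 0.728). Of all tested genes, 2.85% were called in LDPL minus DPL and 4.1% in DLDPL minus DPL. In DLDPL minus LDPL, edgeR called 0%, with 969 genes at an unadjusted p under 0.05, DESeq2 called 35 genes, limma voom with group weights called 1, and limma on log2(RPKM + 1) called 0. The LDPL cross was set against the midpoint of its 2 parent breeds on the log2 scale. PPARGC1A lay 1.20 ± 0.43 above it (edgeR adjusted p = 0.0821) and PPARA 0.47 ± 0.19 above it (0.122), in a comparison where 8.12% of genes were called. Without DPL pig 21 the PPARGC1A value was 1.43 and passed (edgeR adjusted p = 0.0300), and without LDPL pig 15 it was 0.58 (edgeR adjusted p = 0.468).

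Within groups, pigs with more PPARGC1A tended to have more PPARA. After the group means were subtracted from log2 CPM, Pearson's r over the 32 pigs was 0.61 (p = 0.00096 in a permutation test within groups, 0.00416 adjusted over 13 relations). Spearman's rho was 0.46 (permutation p = 0.0132, adjusted 0.0858). Without the 2 pigs farthest from the median of PPARGC1A, r was 0.49. By group, r was 0.19 for L, 0.56 for DPL, 0.71 for LDPL and 0.75 for DLDPL. In exact permutation tests over the 8 pigs these had p = 0.646, 0.149, 0.0461 and 0.0307, and none passed after adjustment over 52 relations (lowest adjusted value 0.218). In DPL, r was -0.14 without the 2 farthest pigs, so that value rests on the 2 highest pigs, 16 and 21. DPL pig 11 stood apart, with PPARGC1A at 32.9 CPM, near its group median, and the lowest PPARA of its group. In a model of all genes against PPARGC1A, PPARA had a slope of 0.25 ± 0.06 on the log2 scale per doubling of PPARGC1A (edgeR adjusted p = 0.0644), which did not pass.

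**Figure D2:**
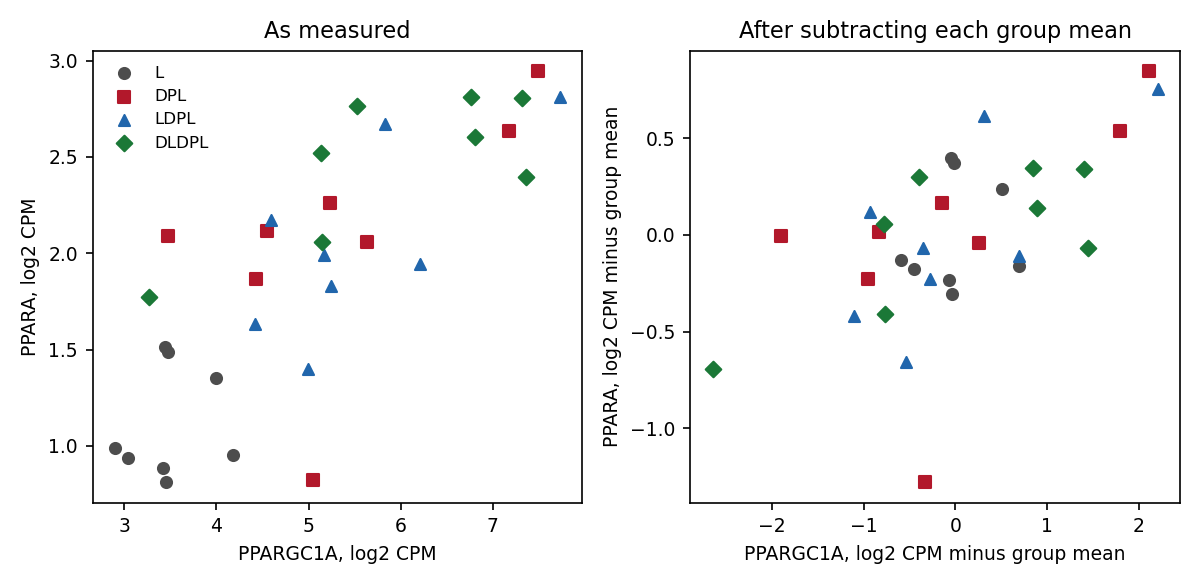
PPARA against PPARGC1A in 32 pigs, in log2 CPM as measured (left) and after subtracting each group mean (right); each point is a pig and colours mark breed groups. The right panel corresponds to r = 0.61.

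Of the other coactivators of the family, PPRC1 also rose in the 3 groups and PPARGC1B did not. PPRC1, a related coactivator that responds to growth signals, was at 14.6 ± 2.53 CPM for L, 28.3 ± 7.97 for DPL, 27.7 ± 9.58 for LDPL and 23.8 ± 4.93 for DLDPL (SD, n = 8 each). It rose by 0.95, 0.92 and 0.70 on the log2 scale against L (edgeR adjusted p = 7.61e-05, 0.000192 and 0.00424). PPARGC1B, encoding PGC-1beta, was at 2.81 ± 0.993 CPM in L and at 1.96, 1.85 and 2.32 CPM in DPL, LDPL and DLDPL. It fell by 0.60 in LDPL (edgeR adjusted p = 0.0394), a call that was lost in 13 of 23 other settings, 9 of them leave-one-out fits. In DPL and DLDPL its changes of -0.52 and -0.27 did not pass. Per doubling of PPARGC1A within groups, the slope was 0.10 for PPRC1 and 0.05 for PPARGC1B, and neither passed.

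Of the receptors, PPARD, the PPAR isotype of broad expression, rose by 0.53 in DPL, 0.79 in LDPL and 0.70 in DLDPL (edgeR adjusted p = 0.0407, 0.00372 and 0.0133). Its DPL call was lost in 12 of 23 other settings, 9 of them leave-one-out fits. Of the PPAR and RXR genes tested besides PPARA it had the steepest slope on PPARGC1A within groups, 0.22 ± 0.06 on the log2 scale per doubling (edgeR adjusted p = 0.108), which did not pass. PPARG, the adipogenic isotype, rose in DLDPL by 1.32 ± 0.34 (edgeR adjusted p = 0.00506), where 1 pig was at 20.6 CPM and the next at 9.50 CPM. Its changes of 0.60 in DPL and 0.02 in LDPL did not pass. Of 3 tested adipocyte markers 1 rose in that group. Their summed level ranged from 15.0 to 91.5 CPM in L and from 26.9 to 135 CPM in DLDPL, and their part in the PPARG result was not tested. RXRB and RXRG, which encode partner receptors of the PPARs, differed by -0.15 to 0.44 and passed in none of the 3 comparisons with L. RXRA was not analysed here.

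Several DNA-binding partners of PGC-1alpha rose against L, and no slope of theirs passed within groups. The list held 15 tested genes, of which 6 rose and 3 fell in DPL, 5 rose and 3 fell in LDPL, and 5 rose and 1 fell in DLDPL, against L. The rises were 40%, 33.3% and 33.3% of the list, beside 19.1%, 14.9% and 11.6% of all genes. Of all genes, 18.9%, 14.7% and 10.3% fell. ESRRA, the estrogen-related receptor that PGC-1alpha binds in its control of mitochondrial genes, was at 60.4 ± 13.0 CPM for L, 142 ± 45.2 for DPL, 96.0 ± 20.0 for LDPL and 86.2 ± 11.8 for DLDPL (SD, n = 8 each). Its rise was 1.23, 0.67 and 0.51 (edgeR adjusted p = 7.98e-07, 0.00269 and 0.0246), and the DLDPL call was lost without L pig 1 (0.0541) or L pig 10 (0.0569). ESRRG, its relative of oxidative tissues, rose by 1.96, 1.79 and 1.66, and FOXO1, a fasting-responsive factor, by 1.45, 1.77 and 1.66. Within groups, r of ESRRA with PPARGC1A was 0.15 and with PPARA 0.10, and neither passed (permutation p = 0.448 and 0.660), with rho 0.08 and 0.10. Without the 2 farthest pigs these were 0.00 and 0.01. In the slope model over all 12820 genes, edgeR called 0.203% with PPARGC1A and 0% with PPARA, with 1571 and 567 genes at an unadjusted p under 0.05. Of the 15 partner genes it called 0 with PPARGC1A, with 3 at an unadjusted p under 0.05, and 0 with PPARA, with 1. The steepest slope on PPARGC1A was that of ESRRG, at 0.37 ± 0.10 per doubling (edgeR adjusted p = 0.124).

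Among 27 tested regulators upstream of PGC-1alpha, counts of rises and falls were even. Against L, 6 rose and 6 fell in DPL, 5 and 5 in LDPL, and 6 and 5 in DLDPL. The rises were 22.2%, 18.5% and 22.2% of the list, beside 19.1%, 14.9% and 11.6% of all genes. Of all genes, 18.9%, 14.7% and 10.3% fell. RCAN1, a calcineurin-responsive gene, rose most, by 4.27, 3.58 and 3.27. PRKAG1 and PRKAG2, encoding regulatory gamma subunits of AMP-activated kinase, and HDAC5, a class IIa deacetylase, also rose in the 3 groups. PPP3CA, a catalytic subunit of calcineurin, fell by 1.08, 0.73 and 0.50. PRKAG2 alone in this list was called against PPARGC1A within groups, with a slope of 0.41 ± 0.08 (edgeR adjusted p = 0.0235), where 0.14% of all genes were called as rising. Its level was 8.73 ± 2.24 CPM for L, 26.0 ± 15.1 for DPL, 35.7 ± 17.1 for LDPL and 30.6 ± 16.8 for DLDPL (SD, n = 8 each).

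Nuclear genes of oxidative phosphorylation were higher than in L in each of the other 3 groups, and the other oxidative lists had most of their rises in DPL. Of 80 listed nuclear genes of oxidative phosphorylation, which encode subunits of the respiratory chain, 43 were tested. Of these 43, 36 rose in DPL, with a median log2 change of 0.61 against -0.02 over all genes. In LDPL 21 rose (median 0.32, all genes -0.03) and in DLDPL 23 (median 0.38, all genes -0.02), and none of the 43 fell in these 3 comparisons. The rises were 83.7%, 48.8% and 53.5% of the 43 tested. Of all genes, 19.1%, 14.9% and 11.6% rose and 18.9%, 14.7% and 10.3% fell in DPL, LDPL and DLDPL. COX5B, a subunit of cytochrome c oxidase, rose by 1.15, 0.65 and 0.64, and UQCRC1, a core subunit of complex III, by 0.87, 0.32 and 0.42. The LDPL call of UQCRC1 was lost in 7 of 16 leave-one-out fits, without L pigs 2, 7 or 10 or LDPL pigs 4, 8, 15 or 24, at 0.26 to 0.31. Of 19 fatty acid oxidation genes, 15 rose in DPL, 4 rose and 2 fell in LDPL, and 6 rose and 2 fell in DLDPL. The rises were 78.9%, 21.1% and 31.6% of that list. HADHB, of the mitochondrial trifunctional protein, rose by 1.08, 0.45 and 0.67. CPT1B, the muscle carnitine palmitoyltransferase and a PPARalpha target, rose by 0.47 in DPL (edgeR adjusted p = 0.00442), a call lost in 2 of 23 other settings, and its differences of 0.11 and 0.23 in LDPL and DLDPL did not pass. Of 16 TCA cycle genes, 12 rose in DPL, none in LDPL and 1 in DLDPL, or 75%, 0% and 6.25% of that list. With limma on log2(RPKM + 1) the DPL counts were 32 of the 43, 9 of the 19 and 5 of the 16. Of the 13 mitochondrially encoded genes, 10 rose in DPL, 1 rose and 1 fell in LDPL, and 1 fell in DLDPL. The rises were 76.9%, 7.69% and 0% of that list. In the crosses, the rising shares of the TCA cycle and mitochondrially encoded lists were below those of all genes. The share of reads from the 13 mitochondrially encoded genes was 20.8 ± 2.58% for L, 31.3 ± 5.59% for DPL, 22.9 ± 4.37% for LDPL and 22.7 ± 4.86% for DLDPL (SD, n = 8 each). Slow and fast fibre genes moved too. Of 6 tested slow fibre genes, from a list of 11, 4 rose in DPL and 2 each in LDPL and DLDPL. Of 6 tested fast fibre genes, from a list of 13, 5, 2 and 2 fell. The part of both fibre lists in the oxidative gene changes was not tested.

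Pig by pig, no relation of these oxidative genes to PPARGC1A was detected. In a model with each group as its own baseline, the median change per doubling of PPARGC1A was -0.002 on the log2 scale over the 43 nuclear oxidative phosphorylation genes, and -0.003 over all genes. No slope of the 43 passed in edgeR or in limma voom, and edgeR gave 0 of 43 at an unadjusted p under 0.05. The same 0 of 19 was found for fatty acid oxidation, with a median slope of -0.02. For the TCA cycle, 0 of 16 passed in edgeR, and 1 gene fell at an unadjusted p under 0.05. For the mitochondrially encoded genes 0 of 13 passed, with none at an unadjusted p under 0.05. Over all 12820 genes edgeR called 0.203%, so counts of 0 called in lists of this size lie near that share. Of all these genes, 1571 had an unadjusted p under 0.05 in edgeR. The slope of UQCRC1 was 0.01 per doubling (95% interval -0.06 to 0.09) and that of COX5B 0.00 (-0.09 to 0.09). In correlations over the 32 pigs after subtraction of group means, r with PPARGC1A was 0.07 for UQCRC1 (rho 0.18, permutation p = 0.725), 0.14 for CPT1B (rho -0.03, p = 0.436) and 0.15 for the mitochondrially encoded share (rho 0.17, p = 0.501). Between DPL and L, by comparison, UQCRC1 differed by 0.36 per doubling of the PPARGC1A difference, and COX5B by 0.47. The upper bound of the slope's interval lay below that ratio for 40 of the 43 genes, 14 of the 19 and 13 of the 16. This was not particular to these lists. It also held for 10 of 13 mitochondrially encoded, 6 of 6 slow fibre and 15 of 16 immediate early genes. In the last list, MAFF and NR4A3 were called with PPARGC1A. The ratio grows with a gene's DPL minus L change, and the share over all genes was not computed. That ratio has an error of its own, and its difference from the slope was not tested. It was taken only from DPL minus L, where the oxidative phosphorylation, fatty acid oxidation and TCA cycle lists rose most. PPARGC1A rose by 2.42 in LDPL and 2.85 in DLDPL. The median rises there were 0.32 and 0.38 for oxidative phosphorylation, 0.15 and 0.23 for fatty acid oxidation, and 0.04 and 0.09 for the TCA cycle. The comparison with the slopes was not made for those groups.

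PPARA gave a similar result, with wider intervals. The median slope per doubling of PPARA was -0.06 over the 43 oxidative phosphorylation genes and -0.03 over the 19 fatty acid oxidation genes, against -0.01 over all genes. In these 2 lists, the 16 TCA cycle genes and the 13 mitochondrially encoded genes, 0 slopes passed in edgeR and 0 had an unadjusted p under 0.05. Over all 12820 genes edgeR also called 0, with 567 at an unadjusted p under 0.05. CPT1B had a slope of 0.20 ± 0.10 on PPARA (edgeR adjusted p = 0.999), and its r with PPARA was 0.37 (permutation p = 0.0516, adjusted 0.134), with rho 0.26 and 0.24 without the 2 farthest pigs. The slope of HADHB was 0.19 per doubling of PPARA (95% interval -0.06 to 0.43). The r with PPARA was -0.16 for UQCRC1 (rho -0.23, permutation p = 0.403) and 0.24 for the mitochondrially encoded share (rho 0.07, p = 0.263).

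**Figure D3:**
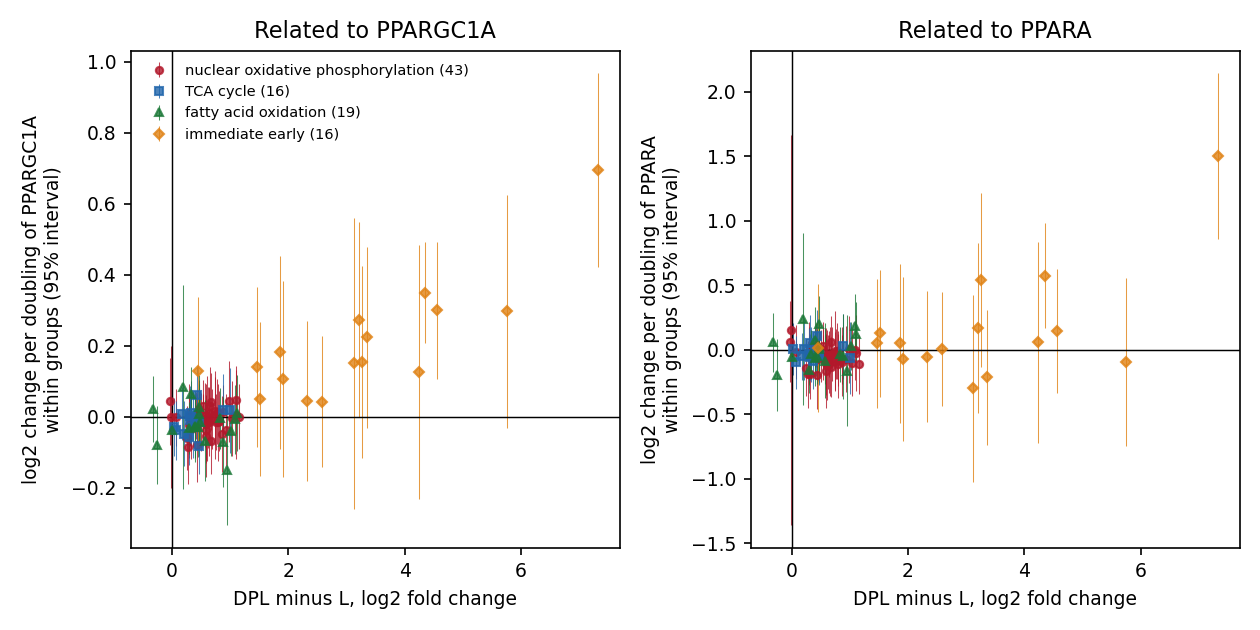
Change per doubling of PPARGC1A (left) or PPARA (right) within groups, with 95% intervals, against the DPL minus L log2 fold change, for genes of 4 lists; each point is a gene. Most oxidative genes lie right of 0 on the horizontal axis, and they lie around 0 on the vertical axis, while NR4A3, an immediate early gene, is the point at the upper right.

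The sign of the relation to oxidative genes was not the same in the 4 groups. The median r of PPARGC1A with the 43 oxidative phosphorylation genes was 0.42 for L, -0.29 for DPL, 0.28 for LDPL and -0.13 for DLDPL. For the TCA cycle genes it was 0.63, -0.35, 0.15 and -0.05. These genes share libraries and vary together, so each median rests on 8 pigs. UQCRC1 had r = 0.72 with PPARGC1A in L (exact permutation p = 0.0450, adjusted 0.218) and -0.10, 0.19 and -0.09 elsewhere. In a test across all genes of whether the slope on PPARGC1A differs between groups, 0 genes passed in edgeR or limma voom, with 1403 and 1656 genes at an unadjusted p under 0.05. For PPARA these counts were 0 and 0, with 769 and 869.

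The group differences of oxidative genes were then fitted with the level of PPARGC1A as a further term, in a fit added after seeing the data. In DPL minus L, the same 36 of 43 oxidative phosphorylation genes were called higher with the term as without it, and the median change was 0.62 in place of 0.61. Over all genes, 14.8% were called higher with the term. In LDPL minus L the count went from 21 to 13 and in DLDPL minus L from 23 to 11, with medians of 0.35 and 0.44, no lower than without the term, and with 10.4% and 5.94% of all genes called higher. With PPARA in its place, the counts were 36, 16 and 7, beside 14%, 10.5% and 4.27% of all genes, and the medians 0.68, 0.45 and 0.52. The other oxidative lists lost calls in DPL minus L. With PPARGC1A, the mitochondrially encoded count went from 10 to 7, the TCA cycle from 12 to 9 and fatty acid oxidation from 15 to 14. With PPARA these counts were 4, 8 and 12. In DLDPL minus L, fatty acid oxidation went from 6 to 4 with PPARGC1A and to 0 with PPARA. The fit assumes 1 slope for the 4 groups, and the level and the group overlap little between L and the rest. With the groups in the model, that slope is the within-group slope reported above. The medians with the term therefore follow from those slopes and are no separate test.

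**Figure D4:**
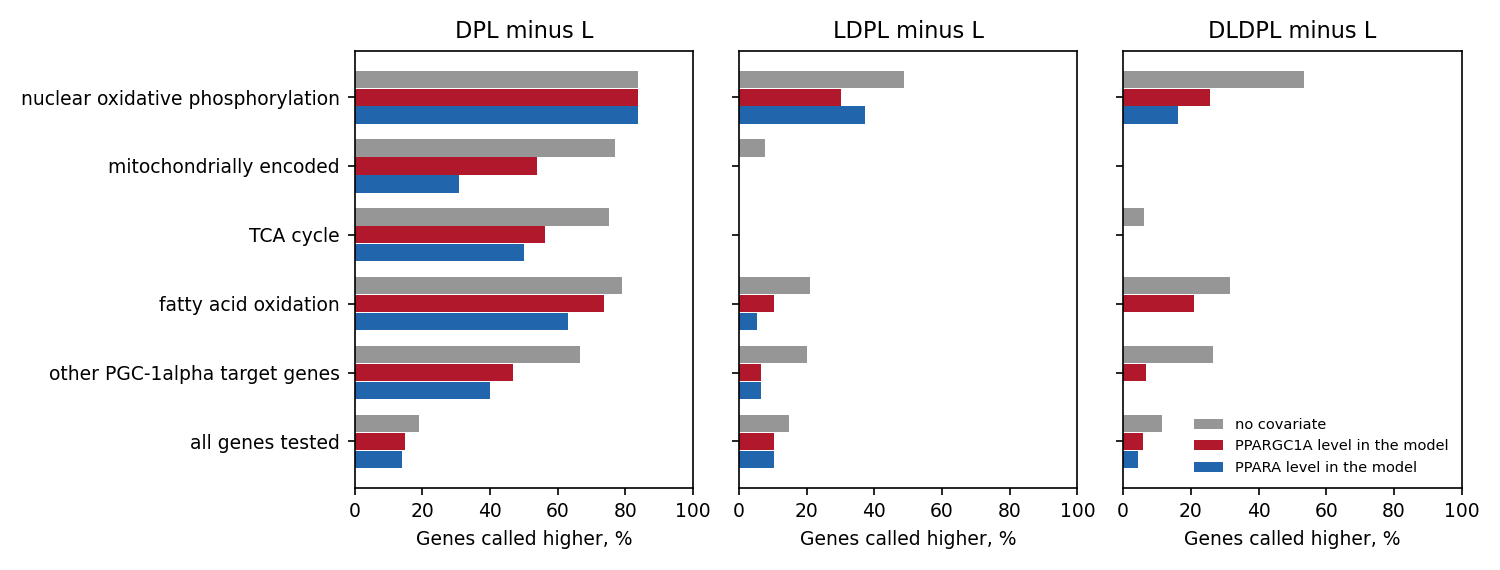
Percent of genes called higher than in L (edgeR adjusted p under 0.05) in 5 lists and over all tested genes, with no further term, with the PPARGC1A level and with the PPARA level in the model. In DPL minus L the bar of the nuclear oxidative phosphorylation list, 36 of 43 genes, has the same length in the 3 fits. The bars of the other lists and of all genes are shorter there with either level in the model.

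Of 15 further PGC-1alpha target genes, 10 rose and 1 fell in DPL, 3 rose in LDPL and 4 rose in DLDPL. The rises were 66.7%, 20% and 26.7% of the list, beside 19.1%, 14.9% and 11.6% of all genes. VEGFA, the angiogenic factor, had the largest slope on PPARGC1A in that list, 0.32 ± 0.08 (edgeR adjusted p = 0.0647), followed by HK2, a hexokinase, at 0.29 ± 0.08 (0.136). FNDC5, the precursor of irisin, fell by 1.30 in DPL (edgeR adjusted p = 0.00058). Of 23 further PPAR target genes listed, 10 were tested. Of these 10, 2 rose and 1 fell in DPL, 1 rose and 3 fell in LDPL, and 1 rose and 2 fell in DLDPL. The rises were 20.0%, 10.0% and 10.0% of the 10 tested, near or below the 19.1%, 14.9% and 11.6% of all genes. Of all genes, 18.9%, 14.7% and 10.3% fell. PDK4, which restrains pyruvate oxidation, ranged from 256 to 1316 CPM for L, 1745 to 6559 CPM for DPL, 1023 to 4353 CPM for LDPL and 914 to 2749 CPM for DLDPL. No DPL pig overlapped L, and PDK4 rose by 2.69, 2.19 and 1.78 against L. Its r with PPARGC1A within groups was 0.48 (permutation p = 0.00473, adjusted 0.0154), with rho 0.36 (adjusted 0.182) and 0.34 without the 2 farthest pigs. By group it was 0.18 for L, 0.44 for DPL, 0.47 for LDPL and 0.90 for DLDPL. With PPARA its r was 0.10 (rho 0.27, permutation p = 0.619). CAT, encoding catalase, fell by 0.40, 0.91 and 0.72. TFAM and CS were not analysed here.

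A small set of genes followed PPARGC1A within groups. In the slope model edgeR called 26 of 12820 genes (0.203%), 18 rising (0.14%) and 8 falling (0.0624%), and 17 of the 26 carried a symbol. Among genes with a symbol, SLC19A2, a thiamine transporter, was most like PPARGC1A, with r = 0.79 over the 32 pigs and a slope of 0.35 ± 0.05 (edgeR adjusted p = 0.0018). It was followed by YOD1, a deubiquitinase (r = 0.73), PISD, which makes phosphatidylethanolamine in mitochondria (0.72), MAFF, a small Maf factor (0.71), PXDC1 (0.70), EEIG1 (0.70), NR4A3 (0.69), PRKAG2 (0.68), NR6A1 (0.68) and ADAMTS9 (0.67). The lowest values belonged to ERMARD (-0.69), PITPNM3 (-0.69), FZD6, a Wnt receptor (-0.69), ING2 (-0.67) and ZNF333 (-0.66). Over all genes, r had a median of -0.01, with 5% of genes below -0.39 and 5% above 0.40. ADAMTS9, PITPNM3 and ZNF333 did not pass in the slope model. In L, 3 of these 15 genes had an r of the opposite sign, EEIG1 (-0.78), NR4A3 (-0.58) and ZNF333 (0.53).

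NR4A3, a nuclear receptor of the immediate early response, had the highest r with PPARA of all tested genes and was among the 10 highest with PPARGC1A. Its lowest, median and highest levels were 0.232, 1.09 and 1.58 CPM for L, 37.5, 145 and 306 CPM for DPL, 65.8, 100.1 and 301 CPM for LDPL and 16.5, 241 and 375 CPM for DLDPL. No pig of the other 3 groups overlapped L. Its r with PPARGC1A was 0.69 (permutation p = 0.00019, adjusted 0.00123), with rho 0.39 (adjusted 0.159) and 0.61 without the 2 farthest pigs. By group r was -0.58 for L, 0.81 for DPL, 0.50 for LDPL and 0.91 for DLDPL, of which the last passed (exact permutation p = 0.000446, adjusted 0.0232 over 52 relations). With PPARA its r was 0.66 (permutation p = 6e-05, adjusted 0.00078), with rho 0.54 (adjusted 0.0360) and 0.65 without the 2 farthest pigs. By group it was positive in the 4 groups, at 0.48, 0.68, 0.87 and 0.71. None of these 4 values passed in exact permutation tests after adjustment over 52 relations (lowest adjusted p 0.0774). Without the 2 farthest pigs of each group they were 0.30, 0.62, 0.67 and 0.25. The NR4A3 slope of 1.503 ± 0.315 per doubling of PPARA did not pass in edgeR over all genes (adjusted p = 0.400).

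**Figure D5:**
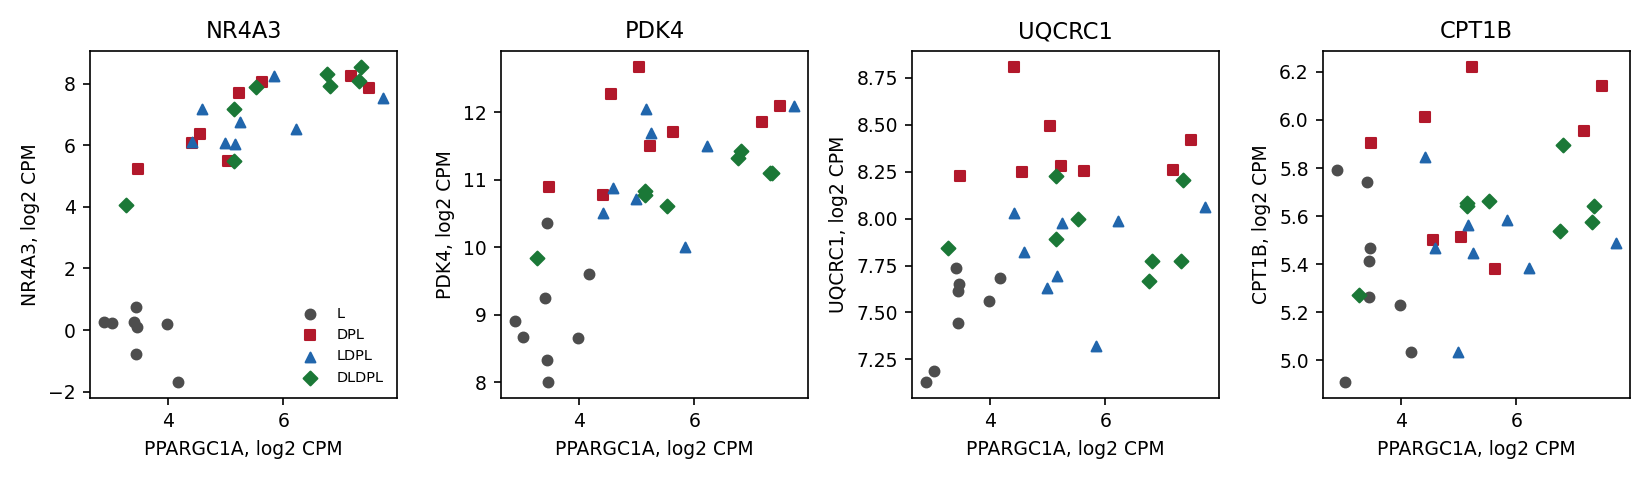
NR4A3, PDK4, UQCRC1 and CPT1B against PPARGC1A in 32 pigs, in log2 CPM; each point is a pig and colours mark breed groups. NR4A3 lies between 0.232 and 1.58 CPM in L and follows PPARGC1A in DLDPL (r = 0.91), while UQCRC1 does not (r = -0.09).

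The immediate early genes, transcribed within minutes of a stimulus, rose with PPARGC1A and PPARA between groups. Of 16 tested, 15 rose in DPL and 14 each in LDPL and DLDPL, with median log2 changes of 3.17, 2.28 and 2.44. The rises were 93.8%, 87.5% and 87.5% of the list, beside 19.1%, 14.9% and 11.6% of all genes. The list was chosen with earlier results of these data known, so these shares are a description only. Within groups all 16 had a positive r with PPARGC1A (median 0.30) and with PPARA (median 0.14), and MAFF and NR4A3 were called with PPARGC1A. In the slope model 11 of the 16 had a positive slope on PPARA, with a median of 0.05 and a lowest value of -0.30, and none passed. The median r with PPARGC1A was -0.41 for L, 0.50 for DPL, -0.18 for LDPL and 0.74 for DLDPL. FOS, the best known of them, ranged from 2.18 to 86.1 CPM in L and from 399.9 to 1322 CPM in DPL. It ranged from 229 to 835 CPM in LDPL and from 48.9 to 805 CPM in DLDPL, where 1 pig, pig 18, lay inside the L range. With the FOS level as a further term, the 26 genes related to PPARGC1A became 11. The part of this response in the levels of PPARGC1A and PPARA between groups was not tested.

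The count of 26 related genes depended on single pigs. Without DLDPL pig 18, the lowest of its group, 1 gene was called. Without DPL pigs 30, 21 and 19 the counts were 4, 6 and 43, and without LDPL pigs 14 and 15 they were 16 and 15. Without DLDPL pigs 20, 27, 29 and 32 they were 10, 13, 14 and 13. Without L pigs 2 and 8 they were 56 and 57, and without the 8 L pigs 44. In each of these fits the number of oxidative phosphorylation and of fatty acid oxidation genes called was 0.

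No gene passed against PPARA in the slope model, with 567 genes at an unadjusted p under 0.05 in edgeR, and 0 in limma voom, with 549. The genes most like PPARA within groups were NR4A3 (r = 0.66), ALOX12B (0.65), PPARGC1A itself (0.61), SLC25A25, a mitochondrial ATP-magnesium carrier (0.60), LMBR1 (0.57), PCF11 (0.56), CLCN6 (0.55), ENTREP3 (0.55), PRDM15 (0.55) and ZBTB40 (0.55). At the other end were DNMT3B, a DNA methyltransferase (-0.67), EOGT (-0.63), GLT8D1 (-0.60), NOPCHAP1 (-0.57) and YPEL5 (-0.56). ALOX12B, at a mean of 0.310 CPM, and DNMT3B, at 0.632 CPM, rest on few reads. Against L, for example, SLC25A25 rose in DPL by 1.02 (edgeR adjusted p = 1.26e-05) and DNMT3B fell by 1.53 (0.000956).

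Markers of other cell types were read beside these results. For comparison, 19.1%, 14.9% and 11.6% of all genes rose against L and 18.9%, 14.7% and 10.3% fell in DPL, LDPL and DLDPL. Skeletal muscle markers, 4 of 7 tested, summed to 39517 to 113004 CPM in L and 40266 to 92042 CPM over the other groups. Medians of these sums were 99746 CPM for L, 59849 for DPL, 70834 for LDPL and 70267 for DLDPL. In DPL, ACTA1 fell by 0.81 (edgeR adjusted p = 0.00534) and DES rose by 0.47 (0.0102), a call lost in 2 of 23 other settings. None of the 4 was called in LDPL or DLDPL. Adipocyte markers, 3 of 7 tested, had a positive r with PPARGC1A in 3 of 3 (median 0.14) and with PPARA in 3 of 3 (median 0.28). None of their slopes on either gene had an unadjusted p under 0.05 in edgeR. Medians of their sums were 34.8 CPM for L, 85.3 for DPL, 37.4 for LDPL and 56.7 for DLDPL. Of these 3 markers, 1 rose in DPL, 0 in LDPL and 1 in DLDPL. Endothelial markers, 5 of 7 tested, had a positive r with PPARGC1A within groups in 5 of 5 (median 0.45) and with PPARA in 5 of 5 (median 0.23). The summed level of these 5 was 107 to 193 CPM for L, 84.1 to 169 for DPL, 86.8 to 145 for LDPL and 78.4 to 153 for DLDPL. None of the 5 rose against L, while 1 fell in DPL, 2 in LDPL and 1 in DLDPL. PECAM1 fell by 0.41 in LDPL (edgeR adjusted p = 0.0474), a call lost in 16 of 23 other settings, 11 of them leave-one-out fits. KDR fell by 0.54 in DLDPL (edgeR adjusted p = 0.0264), a call lost in 7 of 23, 5 of them leave-one-out fits. None of their slopes on PPARGC1A passed in edgeR, with 3 of 5 at an unadjusted p under 0.05. Of 4 tested smooth muscle markers, 2 rose and 1 fell in DPL, 2 rose in LDPL and 3 rose in DLDPL, and their sums ranged from 87.3 to 141 CPM in L and up to 203, 226 and 225 CPM in DPL, LDPL and DLDPL. Their median r with PPARGC1A within groups was 0.08. Fibroblast markers moved the other way, with 3 of 4 lower in DPL and 3 in LDPL, and sums of 1260 to 2231 CPM in L and 326 to 1301 CPM in DPL. Macrophage markers, 4 of 6 tested, summed to 10.8 to 66.7 CPM in L and 15.3 to 52.9 CPM elsewhere. Lymphocyte markers, 2 of 6 tested, summed to at most 13.2 CPM, nerve markers, 2 of 5 tested, to at most 5.11 CPM, and blood markers, 2 of 4 tested, to 5.61 to 169 CPM in L and up to 522 CPM in DLDPL. The part of these cells in the levels and relations of PPARGC1A and PPARA was not tested.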

How the data were processed

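RNA-seq libraries of longissimus dorsi from 32 pigs, 8 per breed group, were analysed. Each deposited table gives, per gene, the authors' read count, RPKM (reads per kilobase of gene, scaled to the library total) and the percent of the gene covered by reads. Per the submitters' processing notes, the tools were Cufflinks and Bowtie 0.12.2, and the genome named was mm8, a mouse build. The gene identifiers are those of pig, and the role of each tool is not given in the sources used here. The deposited RPKM values equal counts recomputed by length and depth, with a largest relative deviation of 2.2e-14. Depth was 21732670 to 29736735 reads. Symbols were found for 10836 of the 17930 listed genes (60.4%). The library kit does not mark strand, so overlapping and antisense genes cannot be told apart.

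Counts as deposited were tested with edgeR 4.0.16 in R 4.3.3. Genes passing filterByExpr (minimum count 10, minimum total 15) were kept, libraries were scaled by TMM, and 1 quasi-likelihood fit of the 4 groups gave each contrast, adjusted by Benjamini-Hochberg over 12821 genes at 0.05. The script was tested on simulated counts. A second model had groups as intercepts and the log2 CPM (prior count 2) of PPARGC1A or PPARA after subtraction of its group mean as slope. A further model allowed that slope to differ between groups, and another, chosen after seeing the data, added the level itself to the group contrasts. Relations between 13 pairs of measures used exact permutation within each group of 8, and 100000 permutations within groups over the 32 pigs. Alternatives used DESeq2 1.42.0, limma 3.58.1 on log2(RPKM + 1) or log2(RPKM + 0.1), limma voom, other scalings, no filter, and each library left out.

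Named genes are the members, the genes of the lists quoted as examples, and, among genes with a symbol, the 10 highest and 5 lowest by r with each member. The members and lists were chosen with earlier results of these data known. No label says more about replicates than their breed group, so p-values measure the spread between these libraries. Intervals for slopes are at 95%. Sequences and coordinates were not used here.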

Additional observations from a re-analysis of the deposited data

Results flagged for a closer look

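Across 14 genes and 4 groups, 56 sets of 8 pigs were searched for a pig far from the rest of its group, and 3 were found; chance alone gives about 1 in 20. The highest LDPL pig had 212 CPM of PPARGC1A, and the next pig of that group had 74.2 CPM. The highest DLDPL pig had 20.6 CPM of PPARG, beside 9.50 CPM in the next. The highest DPL pig had 449 CPM of UQCRC1, beside 360.0 CPM in the next.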

How the results depend on the processing

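The 6 rises of PPARGC1A and PPARA against L kept their direction and their side of the threshold in 147 of 148 settings. The exception was PPARA in LDPL minus L over the 5 pig numbers shared by both groups, at 0.80 with the replicate block (edgeR adjusted p = 0.0795) and 0.85 without the pairing (0.0337). Pigs with the same number did not deviate together (correlations -0.05 to 0.09, 0 of 5 best with its own number), and 1813 genes were called with the block against 2176 without. Leaving out 1 library gave 1.98 to 2.59, 1.80 to 2.55 and 2.64 to 3.03 for PPARGC1A and 0.94 to 1.21, 0.88 to 1.09 and 1.34 to 1.48 for PPARA in DPL, LDPL and DLDPL. The LDPL minus DPL difference, near 0, changed sign: for PPARGC1A it was 0.21 and 0.25 with limma on log2(RPKM + 1) and log2(RPKM + 0.1), 0.15 with limma voom and group weights, and -0.63 to 0.44 over leave-one-out fits, and for PPARA 0.029, 0.055 and -0.20 to 0.075. PPARGC1A in LDPL minus the midpoint ranged from 0.58 to 1.43, and passed without DPL pig 21. The 26 genes related to PPARGC1A became 11 with the FOS level in the model, an alternative chosen after seeing the data, 44 without the 8 L libraries, and 1 to 57 with 1 library left out. The cause was not tested. Of 198 called changes of named genes, 157 were called in every setting run and 41 were lost in at least 1, with 0 changes of sign. PPARA rests on 45 to 200 reads per library, which limits its precision.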
